A study of Mus musculus with 34 samples.

Results

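The genomic sites occupied by the NF-κB subunit p65 (RelA) before any stimulation were compared between CTCF-WT and CTCF-KO bone marrow-derived dendritic cells (BMDCs). There were 781 peaks in WT and 504 in KO. A peak was called shared when it had at least 1 bp in common with a peak of the other list, and merging gave 946 sites, of which 336 were shared, 444 were WT only and 166 were KO only. Both lists are part of a ChIP-seq series of 34 samples, with 30 peak lists and 4 inputs, and together these lists hold 1393623 peaks.

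Bone marrow came from C57BL/6 mice, labelled as 8 weeks old, and was cultured with GM-CSF for 6 days. Per the study's methods, CD11c+ cells were then selected with magnetic beads. Every culture carried CreER, a Cre recombinase that enters the nucleus when tamoxifen binds it and that is expressed from the Rosa26 locus in these mice. CTCF-KO cells (genotype CreER;CTCF fl/fl) also carried loxP-flanked Ctcf alleles, and CTCF-WT cells (genotype CreER) did not. The protocol given for both genotypes added 4-OH tamoxifen on day 1 to delete the floxed allele. WT and KO here mean the unstimulated cells. WTLPS and KOLPS mean the same cells stimulated with LPS (lipopolysaccharide) at 100 ng/ml for 3 h. Cells for STAT5 ChIP-seq received GM-CSF again for 15 min. Each antibody and condition has 1 peak list, so no spread between replicates could be measured and no p-value is given. Intervals in parentheses are 95% intervals that cover counting error only.

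NF-κB dimers are held in the cytoplasm of resting cells by inhibitors of the IκB family. Signals such as those from Toll-like receptors lead to the destruction of IκB, and p65-containing dimers then enter the nucleus and bind short GC-flanked motifs in promoters and enhancers. Some p65 is found on chromatin of myeloid cells even without stimulation. Among the best known targets of p65 are the genes of its own inhibitors. H3K27ac marks active promoters and enhancers, and SMC1 is a subunit of cohesin, the complex that extrudes chromatin loops and stops at CTCF sites. CTCF is a zinc finger protein that anchors loops and domain boundaries.

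The lists were first checked for their labels and depth. CTCF lists held 60537 peaks in WT and 20151 in KO. The peak lists do not measure the deleted exons themselves. Dendritic and myeloid marker genes carried an H3K4me3 peak at the promoter for 15 of 16 genes in WT and in KO, and Ptprc was the exception in WT. The start used for Ptprc (138116441) lay inside this minus-strand gene, which ends at 138175708, so its 5′ end was not examined. Among 25 markers of other cell types, 8 in WT and 7 in KO carried one, and those in WT included S100a8, Pf4 and Pax5. Cd3e, Cd79a and Gata1 had none in WT. The p65 libraries had a similar background of 0.713 fragments covering a base in WT and 0.705 in KO, as recovered from the deposited values. Thinning the WT list to the KO background left an expected 780 peaks, so this measure of depth hardly differed. The study's read counts, which were not used here, were lower for KO p65 than for WT p65.

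Sequences of 60 bases around the NF-κB consensus are shown for strong sites of each class, because this is the motif that p65 dimers recognise. Each was the motif nearest the peak summit and within 50 bp of it. The plus strand of GRCm38 (mm10) is printed 5′ to 3′ with 1-based positions. Capitals mark the 10 bases of the consensus, which may be read on either strand, and the name is that of the nearest protein-coding gene.
Fyb (shared, chr15:6569162-6569221): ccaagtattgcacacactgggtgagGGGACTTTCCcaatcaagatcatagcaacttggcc
Ets2 (shared, chr16:95728952-95729011): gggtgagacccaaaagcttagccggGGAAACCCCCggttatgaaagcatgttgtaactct
Epha4 (WT only, chr1:77280799-77280858): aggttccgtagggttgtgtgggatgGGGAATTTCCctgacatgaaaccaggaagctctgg
Nsl1 (WT only, chr1:191073364-191073423): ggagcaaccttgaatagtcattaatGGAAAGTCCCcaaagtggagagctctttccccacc
Twist2 (KO only, chr1:91674330-91674389): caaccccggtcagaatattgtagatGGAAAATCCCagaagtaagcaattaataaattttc
Ube2d3 (KO only, chr3:135438086-135438145): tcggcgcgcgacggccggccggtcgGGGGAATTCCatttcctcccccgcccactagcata

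In the shared site near Fyb, an adaptor protein of haematopoietic cells, the fold enrichment was 26.3 in WT and 17.0 in KO. It was 27.4 and 17.0 near Ets2, a transcription factor gene. Fold is the ratio of fragments at the summit to the local background, each with 1 added. WT-only sites near Epha4 and Nsl1 had folds of 13.4 and 12.8, and both carried WT and KO peaks of H3K27ac and SMC1. The Nsl1 site also lay 24507 bp upstream of Batf3, a dendritic and myeloid marker gene counted below. KO-only sites near Twist2 and Ube2d3 each had a fold of 9.38. The site at Ube2d3, a ubiquitin-conjugating enzyme gene, lay at its promoter, and that near Twist2 lay 127150 bp upstream of the start site. Neither the Epha4 nor the Twist2 site lay close to its nearest gene, so the names only locate them.

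The consensus was the commonest of the motifs searched in the shared and WT-only classes. It lay within 50 bp of the summit (101 bases, both strands) at 33.2% of shared WT peaks (28.4 to 38.4, n = 337) and at 27.5% of WT-only peaks (23.5 to 31.8, n = 444). The difference of 5.76 percentage points had an interval of -0.72 to 12.3 that included 0. In windows of the same length 1 kb away, 1.34% and 0.788% held it, and 1.30% of 32851 mouse promoters did in the 100 bases around the start site (RefSeq sequences, GRCm38). At KO-only peaks the share was 12.7% (8.43 to 18.6, n = 166) against 28.1% (23.6 to 33.1, n = 338) at shared KO peaks. Outside the immunoglobulin heavy chain locus, described below, it was 17.7% (11.8 to 25.8, n = 113), which was 10.4 points (1.16 to 18.2) under the shared peaks. Both classes of the WT list used the same leading forms of the motif. GGGACTTTCC and GGGGATTTCC each lay nearest the summit at 15 shared and 17 WT-only sites.

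Motifs of other factors were searched in the same windows. The C/EBP motif TTGCNNAA was found at 15.1% of shared WT peaks and 13.1% of WT-only peaks, against 2.97% and 3.27% in the windows 1 kb away and 2.76% of promoters. The AP-1 motif TGANTCA was found at 8.90% and 7.66%, against 1.63% and 3.38% in the windows 1 kb away and 2.28% of promoters. The ETS motif GAGGAAGT, which PU.1 binds, was found at 6.23% and 4.73%, against 0.593% and 0.788% in those windows and 1.40% of promoters. The STAT motif TTCNNNGAA was found at 6.53% and 4.28%, against 3.12% and 2.93% in those windows and 2.52% of promoters. For STAT at WT-only peaks, the interval of 2.76 to 6.59 included the 2.93%. The intervals of the 4 differences between shared and WT-only peaks included 0. In the KO list the C/EBP motif lay at 13.6% of shared and 7.23% of KO-only peaks, a difference of 6.38 points (0.43 to 11.5), or 5.64 points (-1.61 to 11.2) outside the immunoglobulin heavy chain locus. The STAT motif lay at 7.10% of shared KO peaks and at 0 of 113 KO-only peaks outside that locus. This 0 allows a share of up to 2.65% by the rule of 3 counts of the total (3.29% by the Wilson upper limit). In the windows 1 kb away the shares were 3.55% and 2.65%, so the 0 cannot be told apart from that background. The difference was 7.10 points (3.10 to 10.3), and 3.49 points (-1.16 to 7.27) with the locus. The IRF motif GAAANNGAAA was rare, at 2.97% (1.62 to 5.38) of shared WT peaks and 0.901% (0.351 to 2.29) of WT-only peaks. In the windows 1 kb away it lay at 1.34% and 1.58%, and 0.980% of promoters held it. For this motif the difference of 2.07 points had an interval of 0.129 to 4.54 that lay above 0, and 7 motifs were compared. A CTCF motif, CCANNAGGNGGC, was found at 0 of 781 WT peaks. This allows a share of up to 0.384% by the rule of 3 counts of the total (0.489% by the Wilson upper limit). Both limits lie above the 0.262% of promoters that held the motif. These shorter motifs can overlap each other, and a match is a description of the letters only.

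Of the 781 WT peaks, 337 were overlapped by a KO peak, or 43.1% (39.7 to 46.6). In the KO list 338 of 504 peaks had a WT partner, or 67.1% (62.8 to 71.0). Dividing the KO by the WT number of peaks gave 0.645 (0.576 to 0.723). Basal p65 peaks of the WT list were overlapped more often than those called after LPS, where 22.7% (21.6 to 23.9) of 5465 WTLPS peaks were overlapped by a KOLPS peak, a difference of 20.4 points (16.8 to 24.1). In the other direction, 67.1% of basal KO peaks and 72.0% of KOLPS peaks had a WT or WTLPS partner, a difference of -4.97 points (-9.66 to -0.46). List lengths limit these shares, since 504 KO peaks face 781 in WT and 1752 KOLPS peaks face 5465 in WTLPS. Basal WT peaks were overlapped less often than the 8185 WT STAT5 peaks, of which 64.8% (63.7 to 65.8) were overlapped by a KO STAT5 peak. List lengths limit this comparison as well, since 6850 KO STAT5 peaks face those 8185. Most overlaps were wide. The median was 231 bp in the WT list, where peaks had a median width of 247 bp, and the smallest overlap was 29 bp. Summits of shared WT peaks lay a median of 36 bp from the KO summit. Just outside the rule, 7 WT-only peaks had a KO peak within 1 kb, the nearest with a gap of 8 bp.

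Shared peaks tended to be the stronger ones in both lists, with wide overlap between the classes. The median fold was 11.1 at shared WT peaks and 7.59 at WT-only peaks. In the KO list it was 8.80 at shared peaks and 6.45 at KO-only peaks. The highest fold among WT-only peaks was 19.8 and among KO-only peaks 10.6, against 44.4 and 32.8 at shared peaks. With each list cut into 5 parts by −log10 p, the share of WT peaks overlapped by a KO peak went from 15.9% (11.0 to 22.5, n = 157) in the weakest of them through 23.1, 32.7 and 60.3% to 84.0% (77.4 to 88.9, n = 156) in the strongest. In the KO list it went from 29.7% (21.7 to 39.2, n = 101) through 54.5, 72.3 and 80.2% to 99 of 100 peaks (94.6 to 99.8%). How many unshared peaks lay just under the calling threshold of the other library was not tested.

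**Figure D1:**
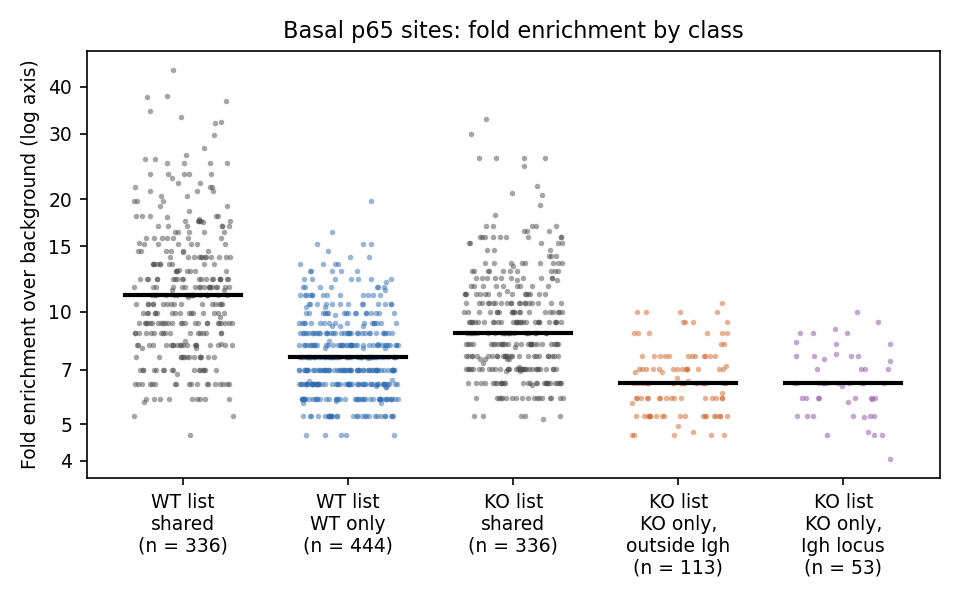
Fold enrichment (log axis) of every basal p65 site, in the list and class named on the horizontal axis. Points are sites and black lines are medians. Shared sites reach above 30 in both lists, and KO-only sites stay at or below 10.6.

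**Figure D2:**
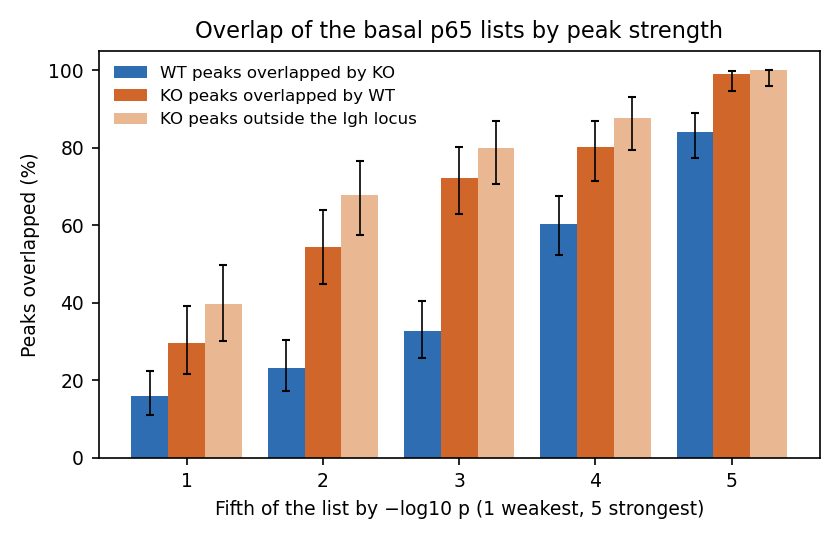
Share of p65 peaks (percent) overlapped by the other basal list, in 5 parts of the list from weakest to strongest −log10 p. Bars show WT peaks, KO peaks and KO peaks outside the immunoglobulin heavy chain locus, and error bars are 95% Wilson intervals. The share in the WT list rises from 15.9% among the weakest to 84.0% among the strongest.

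At shared sites the folds of the KO list were mostly the smaller ones. Of 333 sites with a single peak in each list, the fold was lower in KO at 232 and higher at 101, with a median KO to WT ratio of 0.827. The ratio of folds ran from 0.325 to 1.93. The highest ratio was at the promoter of Rel, which encodes the NF-κB subunit c-Rel, where the fold was 7.01 in WT and 13.5 in KO. A low ratio was seen at the promoter of Cd74, the invariant chain of MHC class II, with 20.4 in WT and 7.04 in KO. The ranks of the sites were related in the pair of lists, with Spearman's rho of 0.56 across sites, which share the libraries and are not replicates. Of the 50 strongest of these sites in each list, 30 were among the strongest of both.

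**Figure D3:**
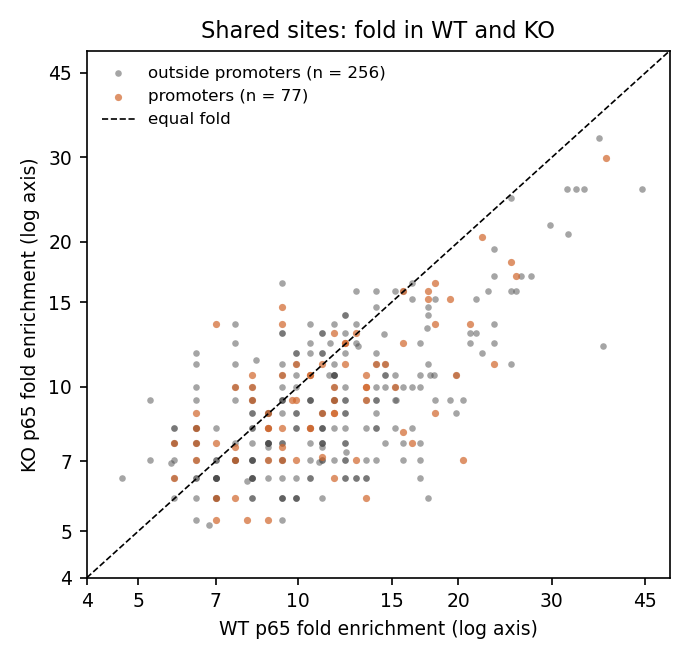
Fold enrichment of p65 in KO against WT (both log axes) at the 333 shared sites with a single peak in each list. Points are sites, coloured by whether they lie at a promoter (77) or outside promoters (256), and the dashed line marks equal folds. Most points (232) lie under the line.

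Shared sites within 100 kb of a protein-coding start site were ranked by the smaller of their WT and KO folds. The first in this order lay 13129 bp downstream of the start of Fpr2 (chromosome 17, 17900736 to 17901280), a formyl peptide receptor of phagocytes. This site had a fold of 36.8 in WT and 32.8 in KO. The next lay at Sod2 (chromosome 17, 13009928 to 13010475), the mitochondrial superoxide dismutase, with 37.9 and 29.9. A site 7856 bp from the start of Zmynd15 (chromosome 11, 70467742 to 70468226) had 33.3 and 25.8, and it also lay 8068 bp upstream of Cxcl16, which encodes a membrane-bound chemokine. Sites nearest Ccdc88b, Lmo4 and Pdgfrb had folds of 25.1, 29.8 and 32.2 in WT and 24.6, 21.7 and 20.8 in KO. The Pdgfrb site also lay 31039 bp upstream of Csf1r, a myeloid marker gene counted below. These 6 sites carried H3K27ac and SMC1 peaks in both conditions.

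The strongest WT-only site lay 53080 bp upstream of Pag1 (chromosome 3, 9886568 to 9886984), a transmembrane adaptor of Src family kinase signalling, with a fold of 19.8. A site 14635 bp downstream of the start of Asb2, which encodes a substrate receptor of a ubiquitin ligase, followed with 16.3. Sites near Fosl2, an AP-1 subunit gene, and near N4bp1 each had 15.2. Another lay in an intron of Irak3 (chromosome 10, 120191300 to 120191531), a brake on Toll-like receptor signalling, with 14.6. A site 76745 bp downstream of the start of Prkce, a protein kinase C gene, had 14.0. All 6 were overlapped by a WTLPS p65 peak and 5 of them by a KOLPS peak, and Prkce was the exception. Each of the 6 carried a KO H3K27ac peak. A WT H3K27ac peak was present at the Pag1, N4bp1 and Prkce sites and absent at the Asb2, Fosl2 and Irak3 sites. The Fosl2 site had an SMC1 peak in WT and not in KO, and the Irak3 site had none in either.

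KO-only sites were weaker. The strongest lay at the promoter of Rras (chromosome 7, 45017667 to 45017892), a small GTPase gene, with a fold of 10.6. Those nearest Slc16a10, Tgfb1, Hexa and Pik3cb had 9.97 each, and one near Mylk2 had 9.38. The Tgfb1 site lay at the promoter of this cytokine gene (chromosome 7, 25689280 to 25689484). Although absent from the basal WT list, 5 of these 6 were overlapped by a WTLPS p65 peak, and the Tgfb1 site was the exception.

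Most genes had a single basal site. Outside the immunoglobulin heavy chain locus, sites were nearest to 768 protein-coding genes, of which 668 had 1 site and 21 had 3 or more, with at most 4. Id2, a regulator of dendritic cell development, was nearest to 4 sites, all WT only, with folds between 7.01 and 12.3 and at 116758 to 419923 bp upstream of its start. Genes with several sites such as Id2, Marcks, Ptger4 and Cebpb were singled out after their values were seen. Ptger4, a prostaglandin E2 receptor gene, had 3 shared sites and 1 WT-only site. Cebpb, a myeloid transcription factor gene, had 2 shared sites and 1 WT-only site. At 48 genes a WT-only site stood beside a shared site, and 357 genes had WT-only sites alone.

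Genes of the NF-κB system itself were among those with a p65 peak at the promoter, within 2.5 kb of the start site. Of 22 genes of NF-κB subunits and inhibitors, 8 had a promoter peak in WT and 7 in KO, while 0.474% of all 21938 protein-coding genes had one in WT and 0.342% in KO. Within 50 kb of the start site, 13 had a peak in WT and 11 in KO, and 10 of them had one in both. Birc2 and Birc3 were counted through the same peak. The background for this distance was 4.84% of genes in WT and 3.15% in KO. Sequences are shown for the promoter sites of listed genes that hold the NF-κB consensus within 50 bp of the summit, so that shared and WT-only promoters can be set side by side. Of the promoter sites of listed genes, 5 of 11 shared, 3 of 4 WT-only and 0 of 4 KO-only sites held it. The sequence at Cd74, one of the shared promoters with the motif, is not shown.
Tnfaip3 (shared, chr10:19015388-19015447): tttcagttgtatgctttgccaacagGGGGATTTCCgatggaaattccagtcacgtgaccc
Nfkbia (shared, chr12:55491932-55491991): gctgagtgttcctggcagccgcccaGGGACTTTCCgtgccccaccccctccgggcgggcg
Birc3 (shared, chr9:7872990-7873049): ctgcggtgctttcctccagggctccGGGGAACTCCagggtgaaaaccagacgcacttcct
Tnip3 (shared, chr6:65590319-65590378): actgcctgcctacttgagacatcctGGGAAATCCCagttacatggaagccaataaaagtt
Tlr2 (WT only, chr3:83841746-83841805): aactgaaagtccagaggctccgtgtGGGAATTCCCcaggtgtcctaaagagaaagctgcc
Cxcl10 (WT only, chr5:92349014-92349073): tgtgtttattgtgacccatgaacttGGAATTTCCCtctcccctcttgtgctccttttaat
Nfkbib (WT only, chr7:28766482-28766541): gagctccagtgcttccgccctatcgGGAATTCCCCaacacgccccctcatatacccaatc

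Feedback inhibitors of NF-κB had shared promoter sites. At Nfkbia, which encodes IκBα, a site just downstream of the start (chromosome 12, 55491513 to 55492093) had a fold of 18.1 in WT and 13.5 in KO. A second Nfkbia site upstream of the start had 11.7 and 12.9. Tnfaip3 encodes A20, a ubiquitin-editing enzyme that ends NF-κB signalling. Its promoter site (chromosome 10, 19015273 to 19015695) had 17.5 and 15.8, and a shared site in an intron had 15.8 in both lists. At Tnip3, an A20-binding protein gene, the fold was 16.3 in WT and 7.62 in KO, so this promoter kept its peak at a smaller fold. Birc3, an inhibitor of apoptosis that acts in TNF receptor signalling, had 19.3 and 15.2 (chromosome 9, 7872771 to 7873346).

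Other IκB family promoters were called in only 1 list. Nfkbie (IκBε) had a WT-only promoter site with a fold of 9.34 (chromosome 17, 45555431 to 45555718). Nfkbib (IκBβ) had one with 7.59 (chromosome 7, 28766460 to 28766691), and this site had H3K27ac and SMC1 peaks in WT and neither in KO. Nfkbiz, which encodes the nuclear protein IκBζ, had KO-only sites at the promoter with a fold of 8.80 and in an intron with 6.45.

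Subunit genes had shared sites. At the promoter of Nfkb2, which encodes p100, the fold was 10.5 in WT and 10.6 in KO, and a further KO-only site there had 6.45. Rel is described above. A site in an intron of Nfkb1, the gene of p105, had 9.34 and 9.38. Another shared site nearest Nfkb1 had 11.7 in WT and 10.6 in KO and lay more than 50 kb from the start used. That start (135622142) lay inside this minus-strand gene, which ends at 135691547, so its 5′ end was not examined as a promoter. Bcl3, an atypical IκB protein gene, had a shared site 22036 bp upstream of its start with 9.92 and 11.1. No basal p65 peak lay within 50 kb of the start of Rela or Relb in either list.

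Cytokine and chemokine genes were near peaks of both lists. Of 30 such genes, 13 had a peak within 50 kb in WT and 12 in KO, and 10 had one in both. Neighbouring genes share peaks in these counts, as Tnf, Lta and Ltb, Ccl3 and Ccl4, Ccl5 and Ccl9, and Cxcl9 and Cxcl10 do. Promoter peaks were found at 4 in WT and 5 in KO. The promoter of Tnf, which encodes the cytokine TNF, had a shared site with folds of 7.59 and 5.86. Ccl3, a macrophage chemokine gene, had a shared promoter site with 9.72 and 9.38. At Il1a, which encodes interleukin-1α, the promoter site had 12.3 in both lists. Near Il1b, the gene of interleukin-1β, shared sites 9778 and 39403 bp upstream had 8.17 and 7.59 in WT and 10.6 and 12.3 in KO. The promoter site of Cxcl10, an interferon-induced chemokine gene, was WT only with 8.76 (chromosome 5, 92348954 to 92349181), and it was overlapped by both p65 lists after LPS. Il10, an anti-inflammatory cytokine gene, had a WT-only site 4345 bp upstream with 9.34. Promoters of Cxcl2 and Ccl9, both chemokine genes, had KO-only sites with 7.04 and 7.62.

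Among genes of dendritic cell maturation, TLR4 signalling and GM-CSF signalling, more were near a WT peak than near a KO peak. The same held for all protein-coding genes, of which 4.84% had a WT peak and 3.15% a KO peak within 50 kb. Of 23 maturation genes, 8 had a peak within 50 kb in WT and 3 in KO, and those 3 also had one in WT. WT-only sites lay near Ccr7, the chemokine receptor that guides dendritic cells to lymph nodes, with 8.76, and near Cd274, which encodes PD-L1, with 7.01. A WT-only site with 6.42 lay within 50 kb of H2-Ab1, H2-Aa and H2-Eb1, genes of MHC class II. The WT counts of H2-Ab1 and H2-Aa rest on this peak alone. H2-Eb1 also had a shared site 42052 bp downstream of its start, with 11.1 in WT and 7.04 in KO. Of 25 TLR4 signalling genes, 5 had a peak nearby in WT and 2 in KO. For Irf3, the KO count rests on the KO-only peak at the promoter of Rras. The promoter of Tlr2, a receptor for bacterial lipopeptides, had a WT-only site with 9.92 (chromosome 3, 83841634 to 83841892), and an intron of Tlr4, the LPS receptor gene, had one with 8.76. Irak2, a kinase of the Myd88 pathway, had a shared site with 11.7 and 10.6 and WT-only sites with 8.76 and 5.84.

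Of 17 GM-CSF and STAT5 signalling genes, 5 were near a WT peak and 2 near a KO peak. A pair of WT-only sites, each with a fold of 12.3, lay near Csf2rb and Csf2rb2, which encode the beta chain of the GM-CSF receptor and its close relative. Both sites lay within 50 kb of either gene, carried H3K27ac and SMC1 peaks in WT and in KO, and count for both genes. Socs3, a feedback inhibitor of cytokine receptors, had a shared site with 7.59 and 9.38 and a WT-only site with 9.92. Of 16 dendritic and myeloid marker genes, 5 were near a WT peak and 2 near a KO peak. These were Ptprc, Batf3, Lyz2, Irf4 and Csf1r in WT, and Lyz2 and Csf1r in KO. Lyz2, the lysozyme gene, had a shared site with 14.0 and 15.8. Among 25 markers of other cell types, Cd4 was near a WT peak and none was near a KO peak. The KO list holds fewer peaks, so smaller counts near genes are given beside the lower KO background above, and no difference between gene lists was tested.

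H3K27ac and SMC1 peaks of the same condition lay at most basal p65 peaks of either class. In WT, an H3K27ac peak overlapped 83.7% (79.4 to 87.2) of shared and 76.6% (72.4 to 80.3) of WT-only p65 peaks, a difference of 7.10 points (1.41 to 12.6). WT SMC1 peaks overlapped 95.8% (93.1 to 97.5) and 87.6% (84.2 to 90.4), a difference of 8.23 points (4.38 to 12.01). Neither mark was present at 0.593% of shared and 9.23% of WT-only peaks. Outside promoters the shares were 83.5% and 74.1% for H3K27ac and 96.5% and 86.4% for SMC1. Read the other way, 45.4% (41.7 to 49.0) of the 712 WT p65 peaks with an SMC1 peak were shared, against 20.3% (12.5 to 31.2) of the 69 without. For H3K27ac these shares were 45.3% (41.5 to 49.3, n = 622) and 34.6% (27.6 to 42.3, n = 159).

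In KO, an H3K27ac peak overlapped 90.5% (86.9 to 93.2) of shared and 71.1% (63.8 to 77.4) of KO-only p65 peaks, a difference of 19.4 points (12.1 to 27.2). With −log10 q of at least 5 in both p65 lists this difference was 7.10 points, with an interval of -0.78 to 17.4 that included 0. For SMC1 the shares were 93.5% (90.3 to 95.7) and 88.6% (82.8 to 92.5), and the difference of 4.94 points had an interval of -0.15 to 11.1 that included 0. Outside the immunoglobulin heavy chain locus the KO-only shares were 75.2% (66.5 to 82.3) for H3K27ac and 85.0% (77.2 to 90.4) for SMC1, and the differences were 15.3 points (7.41 to 24.4) and 8.54 points (2.25 to 16.6).

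**Figure D4:**
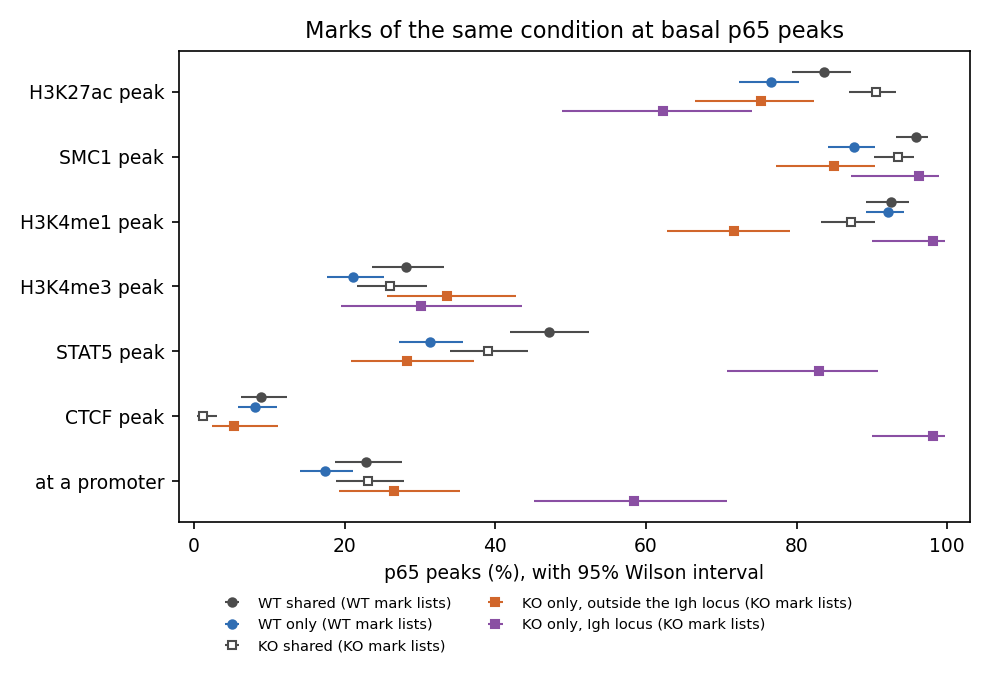
Share of basal p65 peaks (percent, horizontal axis) overlapped by each mark of the same condition, or lying at a promoter, by class. Points are shares and bars are 95% Wilson intervals. The KO-only peaks of the immunoglobulin heavy chain (Igh) locus stand apart for CTCF (98.1%) and STAT5 (83.0%).

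Peak strength differed between the classes, so the WT list was also split at its median −log10 p. Among the weaker WT peaks, H3K27ac lay at 78.1% of 64 shared and 76.8% of 267 WT-only peaks, a difference of 1.35 points (-11.1 to 11.3). For SMC1 the shares were 96.9% and 86.9%, a difference of 9.98 points (1.63 to 15.1). Among the stronger WT peaks the differences were 8.71 points (1.33 to 16.5) for H3K27ac and 6.90 points (1.93 to 12.7) for SMC1, over 273 shared and 177 WT-only peaks.

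Sites without a KO p65 peak had mostly kept both marks in KO. Of the WT-only peaks with a WT SMC1 peak, 92.5% also had a KO SMC1 peak, and of those with a WT H3K27ac peak, 94.1% also had a KO H3K27ac peak. At shared WT peaks these values were 96.6% and 97.2%. Over all WT peaks of these marks, 34.5% of SMC1 and 47.2% of H3K27ac peaks were overlapped in KO. These last shares count mark peaks of any strength rather than p65 peaks, and the strength of mark peaks was not matched. At the 444 WT-only peaks, KO H3K27ac lay at 82.0% (78.1 to 85.3) and KO SMC1 at 84.0% (80.3 to 87.1). A KO H3K27ac peak without a WT one lay at 44 of these sites, and the reverse was found at 20.

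Peaks of other antibodies were counted in the same way. WT STAT5 peaks lay at 47.2% (41.9 to 52.5) of shared and 31.3% (27.2 to 35.8) of WT-only p65 peaks. Within the weaker and the stronger WT peaks this difference was 13.4 points (0.59 to 26.6) and 15.2 points (5.92 to 23.99). The STAT5 cells had received GM-CSF again, unlike those of the p65 lists. WT CTCF peaks lay at 8.90% (6.31 to 12.4) and 8.11% (5.91 to 11.0), a difference of 0.79 points (-3.11 to 4.94). H3K4me1, a mark of enhancers, lay at 92.6% and 92.1% of them in WT. H3K4me3, a mark of active promoters, lay at 28.2% and 21.2%. The repressive mark H3K27me3 lay at 0 of 337 shared WT peaks, which allows a share of up to 0.890% by the rule of 3 counts of the total (1.13% by the Wilson upper limit), and at 7 of 444 WT-only peaks.

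Most basal p65 peaks lay away from promoters. A promoter was overlapped by 22.8% (18.7 to 27.6) of shared and 17.3% (14.1 to 21.1) of WT-only peaks, a difference of 5.51 points (-0.13 to 11.3). Introns held 33.8% and 41.7%, and 39.5% and 38.1% lay outside genes. The median distance from the summit to the nearest protein-coding start site was 21337 bp for shared WT peaks. At KO-only peaks the promoter share was 36.7% (29.8 to 44.3) against 23.1% (18.9 to 27.9) at shared KO peaks, a difference of -13.7 points (-22.3 to -5.23). Outside the immunoglobulin heavy chain locus it was 26.5% (19.3 to 35.4), and the difference of -3.47 points (-13.2 to 5.23) then included 0.

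A cluster of KO-only peaks lay in the immunoglobulin heavy chain (Igh) locus, which holds the antibody heavy chain gene segments (chromosome 12, 113254830 to 116010093). Of the 166 KO-only peaks, 53 lay there, or 31.9%, in 0.101% of the genome. The WT list had 0 peaks there. A single 1 Mb stretch held 49 of them, and outside the locus no such stretch held more than 2 KO-only peaks. Their folds were between 4.05 and 9.97, with a median of 6.45, the same as KO-only peaks elsewhere. Gene segments of this locus resemble each other, and how reads from such copies were placed is not in the lists.

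Other antibodies also had more peaks at this locus in KO. The KO list held more peaks there than the WT list for 8 of 8 antibodies. CTCF peaks covered 6.54% of the locus in WT and 6.28% in KO, while peaks of the other antibodies covered more of it in KO. STAT5 had 5 peaks in WT and 188 in KO, SMC1 had 89 and 283, H3K27ac 11 and 99, H3K4me3 3 and 24, and CTCF 162 and 250. At the 53 p65 peaks, the KO lists had a CTCF peak at 52, an SMC1 peak at 51, an H3K27me3 peak at 50, a STAT5 peak at 44 and an H3K27ac peak at 33. An active mark, a repressive mark and CTCF, whose gene was targeted in these cells, thus shared most of the same positions. The WT lists had an H3K4me1 peak at 19 of them, a CTCF peak at 9, an SMC1 peak at 5 and an H3K27ac peak at 1. The NF-κB consensus lay within 50 bp of the summit at 1 of 53. After LPS, the KOLPS p65 list overlapped 25 of the 53 and the WTLPS list 0. Their part in the results was not tested beyond leaving the locus out, where 74.9% (70.7 to 78.7) of the 451 remaining KO peaks were overlapped by WT. With 1 list per condition, the genotype and the cells or mice behind a library cannot be told apart.

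**Figure D5:**
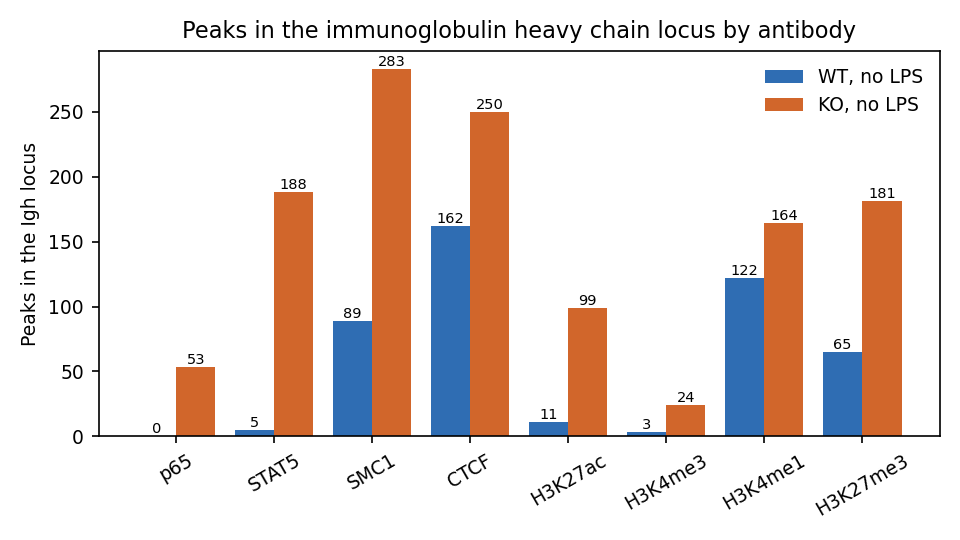
Number of peaks in the immunoglobulin heavy chain locus (vertical axis) in the unstimulated WT and KO list of each antibody. Each bar is 1 list. KO bars are higher than WT bars for all 8 antibodies, with 0 and 53 peaks for p65 and 89 and 283 for SMC1.

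Basal classes were followed into the LPS lists. Of shared WT peaks, 98.8% (97.0 to 99.5) were overlapped by a WTLPS p65 peak and 88.1% (84.2 to 91.2) by a KOLPS peak. Of WT-only peaks these shares were 89.6% (86.5 to 92.1) and 41.9% (37.4 to 46.5). Within the weaker WT peaks, KOLPS peaks lay at 81.2% of shared and 35.6% of WT-only peaks, and within the stronger WT peaks at 89.7% and 51.4%. KO-only peaks outside the Igh locus were overlapped by WTLPS peaks at 79.6% (71.3 to 86.0) and by KOLPS peaks at 68.1% (59.1 to 76.0). Seen from the LPS list, KOLPS peaks overlapped 89.1% (85.3 to 92.0) of 330 WTLPS peaks at shared basal sites, 46.2% (41.4 to 51.1) of 396 at WT-only sites and 16.1% (15.1 to 17.2) of 4739 without a basal WT peak. The median WTLPS fold was lower in the same order, with 18.9, 11.3 and 7.01.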

How the data were processed

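ChIP-seq with antibodies against p65, CTCF, SMC1, STAT5 and 4 histone marks was used, with 1 peak list per antibody and condition. Per the labels, tagmentation libraries were read from both ends, and the submitters' processing notes name the mm10 build, BWA 0.7.12, Picard 1.77, MACS2 2.1.2 and deepTools 3.1.3. The study names biological replicates for ChIP-seq and says that replicates were combined and processed anew. Its methods describe peak calling per replicate, and the labels do not say which of these a list is. The deposited values of a peak are its fold, a ratio of pileup to background, and its p-value and q-value as −log10. The p65 lists had also been filtered: 81 numbers of peak names were missing in WT and 78 in KO. No read count was used. Depth was taken from the peaks as the fragments covering a background base, found from fold and −log10 p below 25, which gave back −log10 p within 0.002 for 100% of p65 peaks.

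Peaks were compared by overlap of at least 1 bp (Python 3.11.15, pandas 2.3.3, scipy 1.17.1). Shares have Wilson intervals and their differences Newcombe intervals. The interval of the ratio came from an exact binomial interval. Promoters were windows of 2.5 kb around (on each side of) the longest transcript's start (55413 genes, GENCODE vM21), and classes were promoter, exon, intron and outside genes, in that order. A peak took its class from any of these genes, not only from the nearest one. Functions were tested on simulated data. Sites were named by rule: the 6 strongest of each class within 100 kb of a protein-coding start, the promoter sites of listed genes, and examples of their sites within 50 kb (up to 4 per list and class). The members, gene lists and alternatives were chosen with earlier results of these data known.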

Additional observations from a re-analysis of the deposited data

How the results depend on the processing

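Over 9 results and 82 alternatives, 71 values moved by less than the interval of the reported value, 11 moved beyond it, and 0 values whose interval left out 0 changed sign. Some of the 71 could not move. The WT list had 0 peaks in the immunoglobulin heavy chain locus, so leaving it out did not change the WT share or the differences within the WT list. A common lowest −log10 p left these values unchanged too. With −log10 q of at least 5 in both p65 lists, the share of KO peaks overlapped by WT was 78.2%, the KO to WT ratio 0.517, and the KO differences between shared and KO-only peaks 7.10 points (-0.78 to 17.4) for H3K27ac and -1.48 points (-6.77 to 6.78) for SMC1, a change of sign of a difference whose interval included 0 both times. With as many of the strongest WT peaks as KO peaks, 56.5% of WT and 56.9% of KO peaks were overlapped. Without peaks that overlap a KO CTCF peak, the share of KO peaks overlapped was 75.6%, the ratio 0.576 and the promoter difference between shared and KO-only peaks -4.10 points. Without the immunoglobulin heavy chain locus, an alternative added after seeing the data, the share of KO peaks overlapped was 74.9% and that promoter difference -3.47 points. The cause of these moves was not tested, other than the removal of the named peaks. The reported values are 43.1%, 67.1%, 0.645, 19.4 points, 4.94 points and -13.7 points. A common lowest −log10 p and the split of the WT list by strength were also added after seeing the data. No paired analysis was possible because each condition has 1 list, which also leaves no replicate to leave out. Depth limits weak peaks: the lowest number of fragments behind a basal p65 peak was 7.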
